A study of Rattus norvegicus with 18 samples.

Results

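Histone deacetylase (HDAC) transcripts of class I and class II were followed in total RNA of the rat ventral tegmental area (VTA), a midbrain nucleus whose dopamine neurons project to the striatum and cortex. The 10 genes Hdac1 to Hdac10 were taken by name from the 38445 genes counted, and 9 of them had enough counts to be tested. The level of Hdac6 could not be read from these counts. The 18 animals were adult male Sprague-Dawley rats, wild type by their labels, and each gave 1 library. Withdrawal rats (13 to 18) were fed Lieber-DeCarli liquid diet containing ethanol at 9% v/v, over 15 or 16 days, and were taken 24 h after it ended. Chronic ethanol rats (7 to 12) ate the same diet and were taken at 0 h of withdrawal. Control rats (1 to 6) ate the control form of the liquid diet. Each group had 6 rats. Values are given as CPM, fragment counts scaled to the size of the library with TMM factors. A gene counts as called where edgeR's quasi-likelihood test over all genes gave a p under 0.05 after Benjamini-Hochberg adjustment. In whole tissue, fewer cells of a type and less RNA per cell cannot be told apart.

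Histone deacetylases remove acetyl groups from lysines of histones and other proteins, and the removal from histone tails goes with a more closed chromatin. In mammals the class I enzymes Hdac1, Hdac2 and Hdac3 are nuclear catalytic subunits of co-repressor complexes, and Hdac8 acts on the cohesin subunit Smc3. The class IIa proteins Hdac4, Hdac5, Hdac7 and Hdac9 bind MEF2 transcription factors and leave the nucleus when kinases phosphorylate them and 14-3-3 proteins hold them in the cytoplasm. Of class IIb, Hdac6 deacetylates tubulin and Hdac10 deacetylates polyamines. Inhibitors of these enzymes are widely used in rodent studies of ethanol exposure and withdrawal.

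Libraries held 29.6 to 45.1 M fragments on genes (median 38.4 M), and each tested HDAC gene had between 263 and 8775 counts in a library. A panel of 13 dopamine neuron markers summed to 1322 to 3891 CPM in all rats but 3, with sums of 1170 CPM for withdrawal rat 13, 490 CPM for withdrawal rat 17 and 569 CPM for chronic ethanol rat 8. Th, which makes the precursor of dopamine, reached 117 CPM (withdrawal rat 13), 17.6 CPM (withdrawal rat 17) and 69 CPM (chronic ethanol rat 8), against 233 to 763 CPM in the rest. Withdrawal rat 13 held 8 pineal gland markers at a sum of 16680 CPM, against 3.03 to 11.1 CPM in the other 17 rats. Its pineal markers included Tph1, a tryptophan hydroxylase, at 15000 CPM, and its 6 oligodendrocyte markers summed to 16620 CPM, against at least 29690 CPM elsewhere. The hindbrain gene Hoxb3 stood at 30.7 CPM in chronic ethanol rat 8 and at 31.4 CPM in control rat 5, and no other rat exceeded 2.01 CPM. Results are therefore given with and without rat 13, and, where they moved, without these 4 rats.

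The promoter sequences of 5 HDAC genes are shown because the text turns on them: Hdac1, Hdac2, Hdac5 and Hdac9 were the 4 that stood at least 1.5 times higher in withdrawal rat 13 than in the median of the other rats, and Hdac7 had the lowest p of the genes in chronic ethanol against control. Each stretch is the 300 bases from 250 before to 50 after the annotated start in RefSeq on GRCr8, read 5′ to 3′ on the gene's strand. They lie at chr5:147165338-147165637 (minus strand) for Hdac1, chr20:42102877-42103176 (plus) for Hdac2, chr10:87688005-87688304 (minus) for Hdac5, chr6:57052522-57052821 (minus) for Hdac9 and chr7:130840968-130841267 (minus) for Hdac7. Capitals mark, on either strand, the GC box (GGGCGG), the CCAAT box (its letters as named), the E box (CACGTG), and TAATCC, a motif bound by homeodomain factors such as CRX of retina and pineal gland. The TATA box (TATAAA) and the cAMP response element (TGACGTCA) were searched the same way.
Hdac1: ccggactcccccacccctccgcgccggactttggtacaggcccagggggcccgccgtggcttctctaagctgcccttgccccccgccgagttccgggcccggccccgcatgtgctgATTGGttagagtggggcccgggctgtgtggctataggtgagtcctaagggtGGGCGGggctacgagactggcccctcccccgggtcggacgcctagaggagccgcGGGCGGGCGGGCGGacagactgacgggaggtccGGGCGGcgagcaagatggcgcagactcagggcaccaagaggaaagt
Hdac2: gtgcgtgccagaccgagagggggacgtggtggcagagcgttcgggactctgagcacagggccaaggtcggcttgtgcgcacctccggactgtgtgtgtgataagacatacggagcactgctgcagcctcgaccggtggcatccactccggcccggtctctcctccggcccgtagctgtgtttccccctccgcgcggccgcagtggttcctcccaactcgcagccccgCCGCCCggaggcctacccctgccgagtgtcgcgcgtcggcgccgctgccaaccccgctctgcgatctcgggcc
Hdac5: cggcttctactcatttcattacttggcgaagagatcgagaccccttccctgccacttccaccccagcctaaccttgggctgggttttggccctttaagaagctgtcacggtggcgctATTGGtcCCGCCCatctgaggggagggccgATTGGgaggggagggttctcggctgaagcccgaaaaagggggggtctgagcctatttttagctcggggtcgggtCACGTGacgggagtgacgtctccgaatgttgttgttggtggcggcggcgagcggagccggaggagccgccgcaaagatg
Hdac9: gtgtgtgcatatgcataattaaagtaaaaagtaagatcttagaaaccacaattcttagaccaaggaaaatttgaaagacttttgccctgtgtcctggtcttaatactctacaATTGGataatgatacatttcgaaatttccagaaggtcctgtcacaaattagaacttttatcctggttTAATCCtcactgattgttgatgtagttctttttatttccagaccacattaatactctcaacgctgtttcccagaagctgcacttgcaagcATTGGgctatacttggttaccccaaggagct
Hdac7: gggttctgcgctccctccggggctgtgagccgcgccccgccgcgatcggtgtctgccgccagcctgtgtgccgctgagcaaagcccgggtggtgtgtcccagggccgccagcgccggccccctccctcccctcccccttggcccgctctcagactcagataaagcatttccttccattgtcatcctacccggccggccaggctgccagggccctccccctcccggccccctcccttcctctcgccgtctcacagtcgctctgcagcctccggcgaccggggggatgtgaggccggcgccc

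All 10 HDAC genes matched an entry of the promoter table. The GC box occurred 5 times in the Hdac1 stretch, where 3 of the matches overlap each other, and 1 time each in those of Hdac2 and Hdac5. It did not occur in those of Hdac7 and Hdac9, and 33.1% of all 33469 promoters of this length hold it. The CCAAT box occurred 1 time in the Hdac1 stretch, 2 times in that of Hdac5 and 2 times in that of Hdac9, against 37.5% of all promoters. The E box was in the Hdac5 stretch only, among the 5 shown, against 6.42% of all promoters. The TAATCC motif was in the Hdac9 stretch only, against 7.17% of all. The TATA box, held by 14.2% of all promoters, and the cAMP response element, held by 1.83%, were in none of the 5. No match of 1 motif overlapped a match of another. GC content was 71% for Hdac1, 70% for Hdac2, 60.7% for Hdac5 and 72.7% for Hdac7 but 37% for Hdac9, where the median of all promoters was 51.7%. None of the 6 motifs was in all 4 stretches of the genes that stood at least 1.5 times higher in rat 13. Hdac3, at 1.40 times and also above all 17 other rats, is not shown, and its stretch had 3 GC box matches. Whether the annotated starts are the ones used in the VTA was not tested. A match here describes letters and is not a measured binding site.

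Hdac6, the tubulin deacetylase, had 1 count in all 18 libraries together, and 17 libraries were at 0. Its record in the files lies on chromosome X at chrX:15396185-15417486 (plus strand, Rnor_6.0), with 30 exon entries and 4167 exon bases. A second gene record, 100813 bases away at chrX:15295372-15316673, has the same exon lengths and held 52 counts in all, at 0 to 14 per library. Fragments that matched several places had been left out before deposit, so reads from a pair of records with the same sequence would not be counted on either, but whether these share their sequence was not checked. The near-zero value of Hdac6 is therefore not read as its level in the VTA, and Hdac6 appears in no comparison below.

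In the files (Rnor_6.0) the tested class I genes lie at chr5:147716664-147743723 (Hdac1), chr20:43084870-43108198 (Hdac2), chr18:31073057-31094347 (Hdac3) and chrX:72163777-72370058 (Hdac8). The class IIa genes lie at chr9:99052945-99299715 (Hdac4), chr10:90140183-90169853 (Hdac5), chr7:139280396-139319108 (Hdac7) and chr6:53487367-54358694 (Hdac9), and Hdac10 lies at chr7:130102335-130109036. All 9 are on the minus strand of that build, while Hdac2 is on the plus strand of GRCr8. No exon base of these genes was shared with another gene, so their counts hold no fragments split between overlapping genes.

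Per exon length, Hdac5 was the most abundant of the 9 genes tested and Hdac8 the least. Levels per length are RPKM, CPM divided by the exon bases of the gene in kilobases. These are all the exon bases annotated for the gene, 3213 for Hdac5 but 15745 for Hdac4. The order per length therefore depends on the annotation, and the length of the transcripts expressed was not measured. Over the 18 rats Hdac5 averaged 45.8 ± 8.61 RPKM, Hdac3 36.5 ± 3.54, Hdac2 33.1 ± 7.77 and Hdac1 18.1 ± 4.28 (SD). Hdac10 averaged 7.55 ± 0.855 RPKM, Hdac7 6.64 ± 0.714, Hdac4 3.37 ± 0.276, Hdac9 2.28 ± 0.664 and Hdac8 1.28 ± 0.168. Without rat 13 the SDs of several were smaller. Over those 17 rats Hdac5 averaged 44.15 ± 5.19 RPKM, Hdac3 35.7 ± 1.06, Hdac2 31.3 ± 1.45, Hdac1 17.2 ± 1.63 and Hdac9 2.15 ± 0.371. Hdac5, the nucleus-to-cytoplasm shuttling class IIa member, thus stood beside the 3 nuclear class I enzymes, while its class IIa relatives Hdac4, Hdac7 and Hdac9 were far lower.

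**Figure D1:**
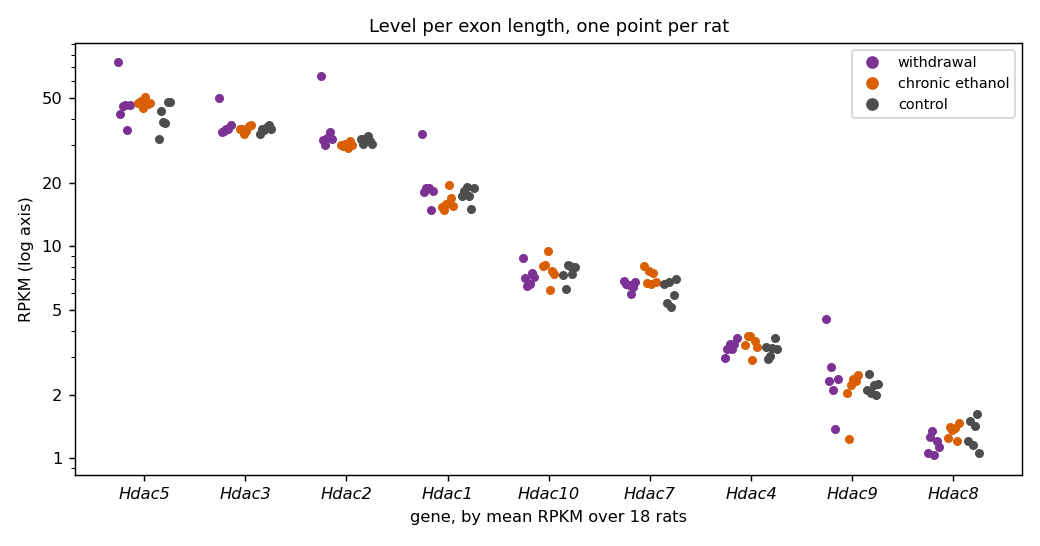
Level of each of 9 histone deacetylase genes in RPKM (log axis), 1 point per rat, with withdrawal, chronic ethanol and control rats side by side in each gene. Hdac5, Hdac3 and Hdac2 form the upper group with overlapping points, and Hdac8 is lowest at 1.28 RPKM on average. Hdac1 lies below the upper group except for its highest point, 34.1 RPKM in withdrawal rat 13, which falls among theirs.

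Neighbours in this order were not all separated. Hdac5 was above Hdac3 in 16 of 18 rats, Hdac3 above Hdac2 in 17 of 18, and their ranges overlapped, at 32.0 to 73.8, 33.8 to 50.1 and 29.1 to 63.7 RPKM. All 3 upper ends belonged to withdrawal rat 13, which was also the rat with Hdac3 below Hdac2. Without rat 13 the ranges were 32.0 to 50.6, 33.8 to 37.3 and 29.1 to 34.7 RPKM, and still overlapped. Hdac10 was above Hdac7 in 16 of 18 rats, at 6.23 to 9.48 against 5.19 to 8.07 RPKM, which also overlap. Hdac2 was above Hdac1, Hdac1 above Hdac10 and Hdac7 above Hdac4 in 18 of 18 rats. Hdac4 was above Hdac9, and Hdac9 above Hdac8, in 17 of 18. The exception was withdrawal rat 13 for the former pair and chronic ethanol rat 8 for the latter. By CPM alone Hdac4, with 15745 exon bases, would rank 4, where per length it ranks 7.

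The ranges of the class I transcripts overlapped between the groups once withdrawal rat 13 was set aside. Hdac1, a subunit of the NuRD, Sin3 and CoREST complexes, ranged from 29.8 to 68.4 CPM (median 37.1) in withdrawal rats, from 30.0 to 38.9 (median 31.3) in chronic ethanol rats and from 30.3 to 38.2 (median 35.8) in control rats. The 68.4 CPM belonged to withdrawal rat 13, and the other 5 withdrawal rats, at 29.8 to 37.7 CPM, overlapped both other groups. Hdac2, its close paralog in the same complexes, ranged from 65.8 to 138.8 CPM (median 70.2) in withdrawal rats, from 63.4 to 68.6 (median 65.5) in chronic ethanol rats and from 65.9 to 71.9 (median 69.3) in control rats. Here too rat 13 alone stood above the range of the rest, the other withdrawal rats reached 75.6 CPM, and 4 of the 5 were above every chronic ethanol rat. Hdac3, the enzyme of the NCoR and SMRT complexes, ranged from 57.0 to 82.7 CPM (median 59.1) in withdrawal rats, from 55.9 to 61.4 (median 58.9) in chronic ethanol rats and from 56.2 to 61.4 (median 58.9) in control rats. Without rat 13 it was the steadiest of the 9 genes, with a coefficient of variation of 2.98% over 17 rats. Hdac8 was the scarcest, at 7.84 to 10.2 CPM (median 8.82) in withdrawal rats, 9.10 to 11.2 (median 10.5) in chronic ethanol rats and 8.06 to 12.3 (median 9.93) in control rats. All 3 of its ranges overlap, and rat 13 lay inside that of its group.

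**Figure D2:**
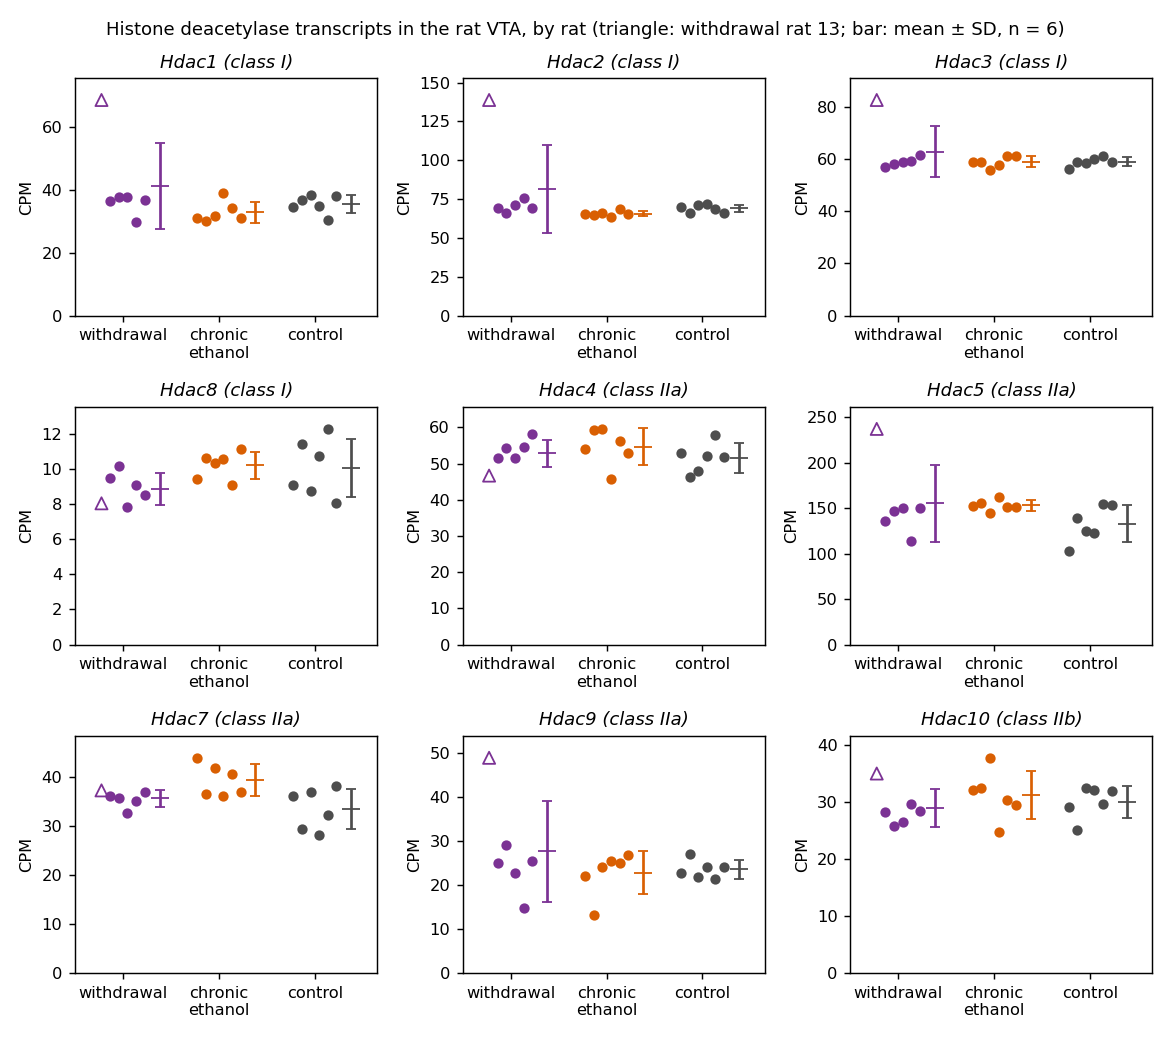
CPM of the 9 tested histone deacetylase genes, 1 panel per gene and 1 point per rat, with withdrawal left, chronic ethanol in the middle and control right. Bars are the mean ± SD of 6 rats. The triangle, withdrawal rat 13, lies above all other rats for Hdac1, Hdac2, Hdac3, Hdac5 and Hdac9, reaching 138.8 CPM for Hdac2.

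Among class IIa, Hdac7 and Hdac5 carried what spread there was between chronic ethanol and control. Hdac7, best known from blood vessel and immune cells, ranged from 32.7 to 37.3 CPM (median 36.0) in withdrawal rats, from 36.2 to 44.0 (median 38.8) in chronic ethanol rats and from 28.3 to 38.2 (median 34.2) in control rats. Of the chronic ethanol rats, 3 were above every control rat and the other 3 lay within the control range. Hdac5, which responds to neuronal activity in the rodent brain, ranged from 113.4 to 237.1 CPM (median 148.5) in withdrawal rats, from 144.8 to 162.7 (median 151.9) in chronic ethanol rats and from 102.9 to 154.6 (median 131.9) in control rats. Its chronic ethanol rats lay close together, 2 of them above every control rat, while control rats were spread widely. Hdac4, a MEF2 co-repressor needed for memory in mice, ranged from 46.7 to 58.1 CPM (median 53.0) in withdrawal rats, from 45.6 to 59.6 (median 55.3) in chronic ethanol rats and from 46.3 to 57.9 (median 52.0) in control rats. Its groups overlapped almost fully, and rat 13 was the lowest withdrawal rat. Hdac9 ranged from 14.9 to 49.0 CPM (median 25.4) in withdrawal rats, from 13.4 to 26.9 (median 24.7) in chronic ethanol rats and from 21.5 to 27.2 (median 23.5) in control rats. Its highest value was that of rat 13, and its lowest were those of chronic ethanol rat 8 and withdrawal rat 17, the rats with the lowest dopamine neuron marker sums. Whether the dissection had a part in these Hdac9 values was not tested.

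Of class IIb, Hdac10 ranged from 25.7 to 34.9 CPM (median 28.3) in withdrawal rats, from 24.8 to 37.7 (median 31.2) in chronic ethanol rats and from 25.1 to 32.4 (median 30.7) in control rats. Its groups overlapped, with rat 13 the highest withdrawal rat. Hdac11, the only class IV enzyme and not among the 10 genes, is given as a relative. It ranged from 160.3 to 307.1 CPM (median 299.8) in withdrawal rats, from 276.5 to 354.2 (median 307.8) in chronic ethanol rats and from 269.8 to 329.3 (median 297.6) in control rats. Rat 13 was its lowest rat.

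Withdrawal against control addresses which transcripts differ in the VTA 24 h after ethanol ends. No first index sequence in the library names was shared by withdrawal and control rats. A difference of group therefore cannot be told apart from one of index when these rats are compared directly. No HDAC gene was called by edgeR, which called 0% of the 17637 genes tested, and 0 of the 9 had an unadjusted p under 0.05, against 1732 genes, 9.82%, in all. DESeq2, which called 47 genes, 0.266%, and limma-voom, which called 0, called no HDAC gene either. Without rat 13 edgeR called 0.0113% of genes and without rats 5, 8, 13 and 17 it called 0%, again with no HDAC gene among them. The fitted change was above 0 for 7 of the 9 genes, against 53.7% of all genes, with a median log2 change of 0.09 against 0.01 over all genes tested. Hdac2 averaged 81.6 ± 28.2 CPM in withdrawal rats and 68.9 ± 2.497 CPM in control rats (SD, n = 6 each), a log2 change of 0.24 ± 0.14 (SE) with an edgeR adjusted p of 0.549. Without rat 13 the withdrawal mean of Hdac2 was 70.2 ± 3.55 CPM and its log2 change 0.03, with a 95% interval of -0.06 to 0.11. Hdac1 had a log2 change of 0.22 with rat 13 and 0.01 without it, Hdac5 of 0.23 and 0.07, and Hdac9 of 0.23 and -0.01. With the first index as a term, in all rats, that of Hdac9 was -0.11 (95% interval -0.82 to 0.61). Without rat 13, 5 of the 9 genes lay above 0, with a median of 0.01 against -0.01 over all genes tested then. Hdac8 pointed the other way, with a log2 change of -0.18 in all rats and -0.16 without rat 13 (adjusted p = 0.55 and 0.709 by edgeR). All 13 dopamine neuron markers lay lower in withdrawal rats, with a median log2 change of -0.39, and of -0.29 without rat 13. They all still lay lower without rats 5, 8, 13 and 17, with a median of -0.19. None was called, and their part in the HDAC values was not tested.

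**Figure D3:**
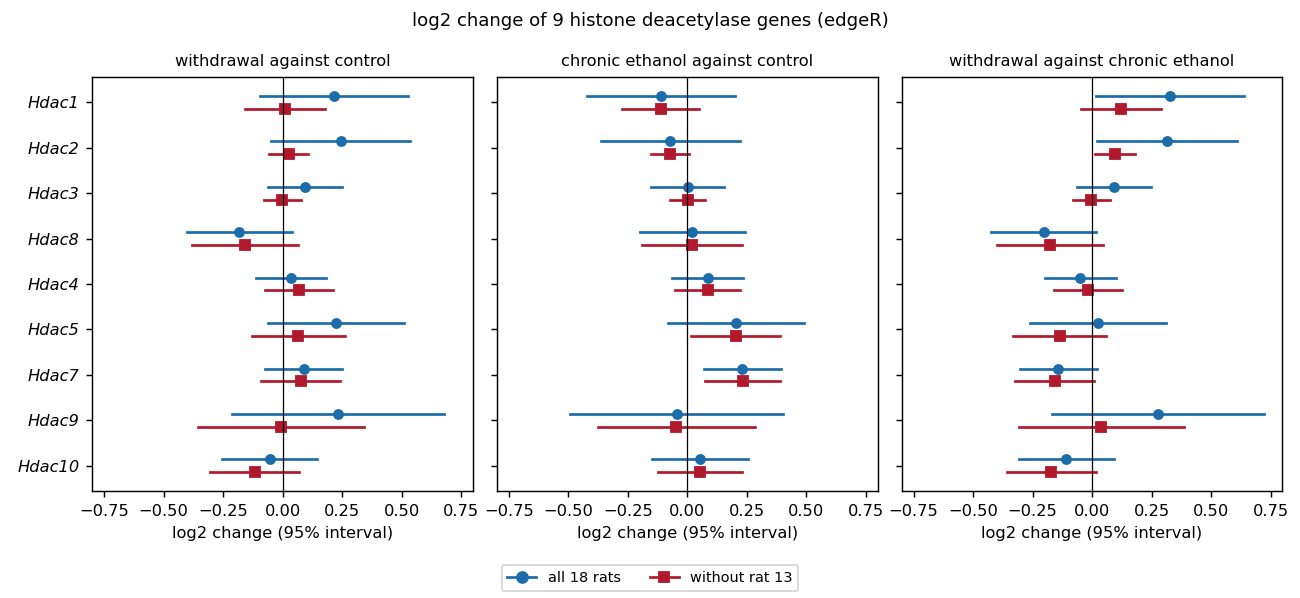
Fitted log2 change of 9 histone deacetylase genes with its 95% interval (edgeR), in all 18 rats (circles) and without withdrawal rat 13 (squares), for withdrawal against control, chronic ethanol against control and withdrawal against chronic ethanol. For Hdac2 in withdrawal against control the value is 0.24 with rat 13 and 0.03 without it, while Hdac7 in chronic ethanol against control stays at 0.23.

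Chronic ethanol against control addresses which transcripts differ while the rats still take ethanol. No HDAC gene was called by edgeR, where 0% of 17637 genes were. DESeq2 called 46 genes, 0.261%, and limma-voom 2, 0.0113%, and no HDAC gene was among them. Nor was one among the 0.0225% that edgeR called without rat 13 or the 0.0113% without rats 5, 8, 13 and 17. The 95% intervals of the 9 log2 changes lay within -0.49 and 0.49 in the fit of all 18 rats with group as the only term. Hdac7 averaged 39.4 ± 3.23 CPM in chronic ethanol rats and 33.6 ± 4.15 CPM in control rats (SD, n = 6 each), 1.17-fold, with a log2 change of 0.23 ± 0.077 (SE, 95% interval 0.07 to 0.39). Its unadjusted edgeR p was 0.00761 and its adjusted p 0.695, so it did not pass over all genes. With all 18 rats it was the only one of the 9 with an unadjusted p under 0.05, a level that 5.84% of all genes reached. Of 6 endothelial markers, 5 lay higher in chronic ethanol rats (median log2 change 0.18, and 0.10 without rats 5, 8, 13 and 17, none called), with sums of 302 to 392 CPM in chronic ethanol rats and 235.5 to 361 CPM in control rats. In withdrawal against control 4 of these 6 lay higher (median 0.15, and 0.215 without rat 13), where Hdac7 had a log2 change of 0.09. In withdrawal against chronic ethanol 3 of the 6 lay higher (median 0.01), where Hdac7 had one of -0.14. No endothelial marker was called in either. All 4 red blood cell markers lay lower (median log2 change -1.36, none called, all 4 with an unadjusted edgeR p under 0.05), with sums of 52.2 to 234 CPM in chronic ethanol rats and 183 to 520.4 CPM in control rats. They lay as low in withdrawal against control (median -1.40, all 4 lower, all 4 with an unadjusted edgeR p under 0.05, none called). In chronic ethanol against control all 6 oligodendrocyte markers (median -0.10) and 10 of 13 dopamine neuron markers (median -0.06) also lay lower, none called. No marker of these lists was at 0 throughout, and the part of these markers in the Hdac7 difference was not tested. Without control rat 5, chronic ethanol rat 8 and withdrawal rats 13 and 17 the log2 change of Hdac7 was 0.24, with an edgeR adjusted p of 0.277. The first index sequence in the library names, shared by rats 1 to 8, ties only chronic ethanol rats 7 and 8 to the control rats, and these averaged 40.3 CPM of Hdac7. With that index as a term its log2 change was 0.26 (adjusted p = 0.667 by edgeR). The same term gave Hdac9 a log2 change of -0.41 (95% interval -0.97 to 0.14), against -0.05 without it, and Hdac1 one of -0.22 (-0.63 to 0.20). Chronic ethanol rat 8, the lowest rat for Hdac9, is 1 of the 2 chronic ethanol rats on which these values rest. Hdac5 averaged 153 ± 5.98 CPM in chronic ethanol rats and 132.9 ± 20.2 CPM in control rats, a log2 change of 0.20 ± 0.14 (SE, edgeR unadjusted p = 0.153, adjusted p = 0.969). Without rat 13 it was also 0.20, with an unadjusted p of 0.0357 and an adjusted p of 0.419 by edgeR, and without rats 5, 8, 13 and 17 it was 0.24, with 0.0102 and 0.265. Hdac1 without those 4 rats had a log2 change of -0.13, with an unadjusted edgeR p of 0.0458 and an adjusted p of 0.374. An unadjusted edgeR p under 0.05 was reached by 2 of the 9 genes and 1906 of all 17751 without rat 13. The fit without those 4 rats had 3 of the 9 and 2310 of all 17718 at that level. Hdac1 and Hdac2 had log2 changes of -0.11 and -0.07, Hdac3 of 0.00, and the 9 genes a median of 0.02 against -0.00 over all genes tested. The change was above 0 for 6 of the 9 both with and without rat 13, against 48.7% and 48.6% of all genes.

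Withdrawal against chronic ethanol addresses what differs once ethanol is taken away. It shares its withdrawal rats with the first comparison and its chronic ethanol rats with the second, so the 3 sets of values are not independent. No HDAC gene was called by edgeR, where 0% of 17637 genes were, nor by DESeq2, which called 294 genes, 1.67%, nor by limma-voom, which called 0. Without rat 13 edgeR called 0.124% of genes and without rats 5, 8, 13 and 17 it called 0.0113%, with no HDAC gene among them. Hdac1 averaged 41.1 ± 13.7 CPM in withdrawal rats and 32.8 ± 3.33 CPM in chronic ethanol rats (SD, n = 6 each), a log2 change of 0.33 ± 0.15 (SE) with an unadjusted edgeR p of 0.0412 and an adjusted p of 0.313. Hdac2 averaged 81.6 ± 28.2 against 65.6 ± 1.72 CPM, a log2 change of 0.31 ± 0.14 with an unadjusted edgeR p of 0.0364 and an adjusted p of 0.306. These were the 2 of 9 genes with an unadjusted p under 0.05, a level that 15.3% of all genes reached. Without rat 13 the withdrawal mean of Hdac1 was 35.6 ± 3.31 CPM and its log2 change 0.12 (adjusted p = 0.533 by edgeR). For Hdac2 the withdrawal mean without rat 13 was 70.2 ± 3.55 CPM and the log2 change 0.10, with an unadjusted edgeR p of 0.0257 and an adjusted p of 0.286. Without rats 5, 8, 13 and 17 the log2 change of Hdac2 was 0.06, with an unadjusted edgeR p of 0.138 and an adjusted p of 0.544, and that of Hdac1 was 0.15, with 0.031 and 0.325. An unadjusted edgeR p under 0.05 was reached by 1 of the 9 genes and 2475 of all 17751 without rat 13. The fit without those 4 rats had 1 of the 9 and 2322 of all 17718 at that level. Among rats 9 to 16, which share an index sequence, Hdac2 averaged 86.1 ± 35.2 CPM in 4 withdrawal rats and 65.9 ± 2.15 CPM in 4 chronic ethanol rats (SD), and 68.6 ± 2.59 CPM in the 3 withdrawal rats other than rat 13. Hdac5 changed sign, with a log2 change of 0.02 in all rats and -0.14 without rat 13, at edgeR adjusted p-values of 0.947 and 0.549. Hdac8 and Hdac7 lay on the lower side, with log2 changes of -0.20 and -0.14, and 4 of 6 withdrawal rats were below every chronic ethanol rat for Hdac7. The change was above 0 for 5 of the 9 genes with rat 13 and for 3 of 9 without it, against 53.3% and 47.2% of all genes. Of 13 dopamine neuron markers, 12 lay lower in withdrawal rats (median log2 change -0.38), and all 13 without rat 13 (-0.24). Of 6 oligodendrocyte markers, 5 lay higher (0.05), and all 6 without rat 13 (0.20). None of these markers was called, and their part in the HDAC values was not tested.

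Since leaving out withdrawal rat 13 moved several of these changes, its HDAC values were read gene by gene against the other 17 rats. Hdac1 stood at 1.97 times their median, Hdac2 at 2.03, Hdac9 at 2.03, Hdac5 at 1.58 and Hdac3 at 1.40. These 5 of 9 genes were above all 17 other rats, as were 32% of all genes tested, and 4 of 9 reached 1.5 times, as did 20.8% of all genes. Hdac10 stood at 1.18 times, Hdac7 at 1.03, Hdac4 at 0.882 and Hdac8 at 0.848, all within the range of the other rats. None of the 9 lay at the median divided by 1.5 or lower, a level that 22.4% of all genes had in rat 13. Hdac11 was at 0.527 times their median, below all of them, as were 25.6% of all genes. The 8 pineal markers summed to 6.44 to 16680 CPM in withdrawal rats, 3.51 to 10.4 CPM in chronic ethanol rats and 3.03 to 6.92 CPM in control rats, with none of the 8 at 0 throughout. The melatonin synthesis genes Asmt and Aanat were at 411 and 25.3 CPM in rat 13 and at most 1.98 CPM in the others. The 5 choroid plexus markers summed to 396 CPM in rat 13, against 2.71 to 15.0 CPM in the rest. The part of these tissues in the HDAC values of rat 13 was not tested. No HDAC gene was called in the fits with rat 13 or in those without it.

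**Figure D4:**
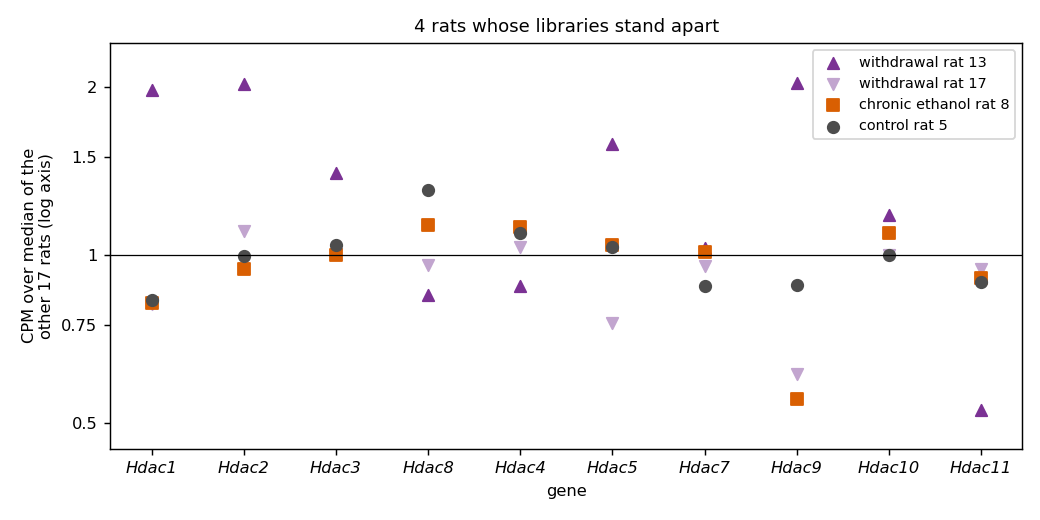
CPM of 9 histone deacetylase genes and Hdac11 in 4 rats whose libraries stand apart, divided by the median of the other 17 rats (log axis). Withdrawal rat 13 lies near 2 for Hdac1, Hdac2 and Hdac9 and at 0.527 for Hdac11, while withdrawal rat 17 and chronic ethanol rat 8 are low for Hdac9.

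The other 3 rats that stood apart were less unusual in these genes. Chronic ethanol rat 8 had Hdac9 at 0.552 times the median of the others, below all 17, and withdrawal rat 17 had Hdac9 at 0.613 times and Hdac5 at 0.756 times. Control rat 5 had Hdac8 at 1.30 times, above all 17. No other of the 9 genes was the highest of all 18 rats in 1 of these 3 animals, and Hdac1 was lowest in rat 17 at 29.8 CPM. Without all 4 rats the log2 change of Hdac9 was 0.09 in withdrawal against control and 0.04 in chronic ethanol against control, with edgeR adjusted p-values of 0.839 and 0.873.

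The makeup of the family, in place of single genes, was described by the share of each class in the summed RPKM of the 9 genes. Class I held 56.8 to 61.6% (median 57.9%) in withdrawal rats, 54.4 to 56.1% (median 54.9%) in chronic ethanol rats and 55.6 to 62.2% (median 59.4%) in control rats. All 6 withdrawal rats, rat 13 at neither end of them, were above all 6 chronic ethanol rats, while control rats overlapped both. Class IIa held 33.1 to 38.9% (median 37.5%) in withdrawal rats, 39.0 to 40.7% (median 39.8%) in chronic ethanol rats and 32.4 to 39.2% (median 35.7%) in control rats. The highest withdrawal rat lay just under the lowest chronic ethanol rat, and 2 control rats lay inside the chronic ethanol range. Hdac10 held the rest, 3.57 to 6.34% over all rats, so the class I and class IIa shares nearly mirror each other. These shares are descriptions with no test. No single HDAC gene separated any pair of groups fully. Of all genes tested, taken singly by CPM, 0.811% had every withdrawal rat above every chronic ethanol rat and 0.544% had every one below. Against control those percentages were 0.227 and 0.38 for withdrawal rats and 0.522 and 0.408 for chronic ethanol rats. They hold for single genes, and none was computed for shares of summed genes.

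**Figure D5:**
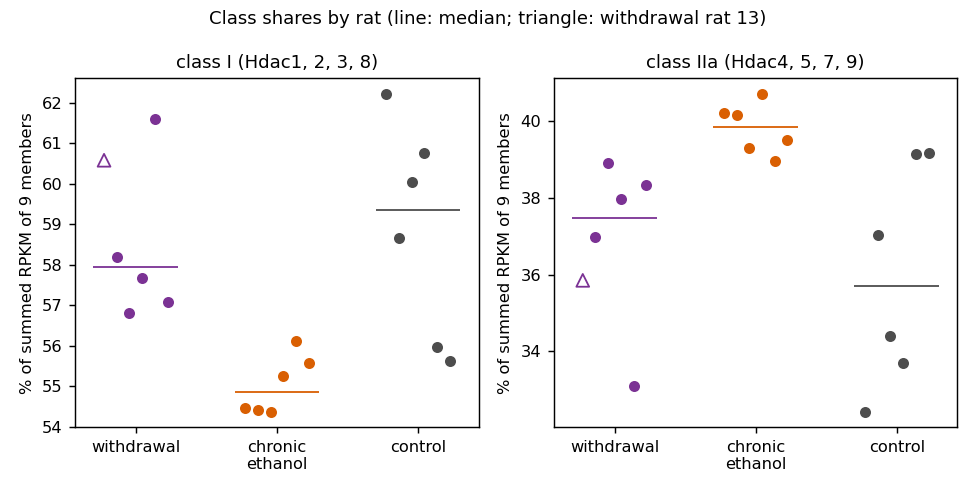
Share of class I (left; Hdac1, Hdac2, Hdac3 and Hdac8) and class IIa (right; Hdac4, Hdac5, Hdac7 and Hdac9) in the summed RPKM of 9 histone deacetylase genes, in percent, 1 point per rat with the median as a line; the axes do not start at 0. Chronic ethanol rats lie together at 54.4 to 56.1% class I, below all withdrawal rats, and control rats spread over both.

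In CPM, with no division by length, the order of the shares changed but class I stayed apart between those groups, at 37.0 to 42.4% in withdrawal rats and 34.7 to 36.7% in chronic ethanol rats. Class IIa then overlapped, at 51.7 to 57.5% in withdrawal rats and 57.3 to 58.0% in chronic ethanol rats. The CPM form of the shares was looked at after the data were seen. The summed RPKM of the 9 genes was 149 ± 5.64 in 5 withdrawal rats without rat 13, 152 ± 2.02 in chronic ethanol rats and 147 ± 6.42 in control rats (SD), and 246 in rat 13.

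Some HDAC genes kept a near constant ratio to each other. Likeness was measured as the SD over rats of the log2 ratio of a pair of genes. A small SD means a near constant ratio. It also arises where both genes vary little, so it does not by itself show levels that move in step. Without rat 13 the closest pair was Hdac2 and Hdac3, with an SD of 0.0737 over 17 rats, and the SD was 0.146 with rat 13. Both genes varied little over those 17 rats, with SDs of their own log2 CPM of 0.066 and 0.043. Hdac3 and Hdac4 followed at 0.114 and Hdac2 and Hdac4 at 0.128. The paralogs Hdac1 and Hdac2 had an SD of 0.157, and Hdac9 and Hdac10 were the least alike at 0.374. These SDs are descriptions, with no test, and the values of both genes of a pair come from the same libraries.

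Over the 15028 genes that averaged 1 CPM or more, the 3 most like each HDAC gene were mostly others once rat 13 was left out. No other rat was left out in this way. Whether the change is particular to rat 13 was therefore not tested, and the SDs within a set of 3 lay close together. Most like Hdac2 over all 18 rats were Zdhhc6, Hmgxb3 and Cfl2, with SDs of 0.0505 to 0.0576, and without rat 13 they were Rmnd1, Plrg1 and Psmd6, with SDs of 0.0376 to 0.0388. Most like Hdac1 were Akr1b1, Smarce1 and Hif1a over 18 rats and Sar1b, Atf4 and Eif4a1 without rat 13. For Hdac3 they were Paip2, Acin1 and Trmt112, and then Ubb, Psmd11 and Aplp2. For Hdac5 they were Furin, Mrpl54 and Ubqln4, and then Mrpl34, Tpd52 and Rps15. For Hdac7 they were Zfp523, Ncln and Tbkbp1, and then Idua, Fbrs and Srf. For Hdac9 they were Prkar2b, Slc35g2 and Tlcd5, and then Prmt2, Hcn3 and Rit2. Hdac4 was most like Ago1, Mycbp2 and Dnajc5, and without rat 13 like Ctnna2, Shd and Mapkbp1. Hdac10 was most like Recql5, Klhl17 and Fhip2b, and then like Flot2, Frs3 and Npr2. Hdac8 was most like Gpr75, Cmss1 and Evi5, and without rat 13 like Zfp418, Gpr75 and Adcyap1r1. Of each set of 3, none was shared between the 18 and the 17 rats, except Gpr75 for Hdac8.

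The proteins with which these enzymes work were counted from 8 lists. No gene of any list was called by edgeR in any of the 3 comparisons, where 0% of all genes were. In withdrawal against control, the NuRD complex, a chromatin remodeller that holds Hdac1 and Hdac2, had 9 of 13 tested genes above 0, with a median log2 change of 0.07. The Sin3 complex had 11 of 12 above 0 (median 0.11) and the CoREST complex 7 of 9 (median 0.13). The NCoR and SMRT complexes, which hold Hdac3, had 5 of 6 above 0 (median 0.12), and the cohesin list of Hdac8 had 7 of 7 (median 0.12). Without rat 13 the counts above 0 were 10 of 13, 8 of 12, 5 of 9, 5 of 6 and 4 of 7 in the same order of lists, with medians of 0.04, 0.02, 0.02, 0.08 and 0.01. Over all genes tested 53.7% lay above 0 with rat 13 and 46.9% without it. The partners of class IIa proteins, among them MEF2 factors and 14-3-3 proteins, had 4 of 11 above 0 (median -0.05), their kinases 14 of 16 (median 0.09) and the Hdac6 list 3 of 7 (median -0.05). Without rat 13 these were 2 of 11, 10 of 16 and 3 of 7.

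In chronic ethanol against control, 8 of 13 NuRD genes lay above 0 (median log2 change 0.03), 8 of 12 of Sin3 (0.05), 6 of 9 of CoREST (0.02), 5 of 6 of NCoR and SMRT (0.02) and 2 of 7 of cohesin (-0.04). For class IIa partners it was 5 of 11 (-0.00), for their kinases 10 of 16 (0.01) and for the Hdac6 list 1 of 7 (-0.10), against 48.7% of all genes. In withdrawal against chronic ethanol, it was 8 of 13 for NuRD (0.02), 7 of 12 for Sin3 (0.03), 7 of 9 for CoREST (0.06), 5 of 6 for NCoR and SMRT (0.09) and 7 of 7 for cohesin (0.17). It was 4 of 11 for class IIa partners (-0.08), 10 of 16 for the kinases (0.05) and 5 of 7 for the Hdac6 list (0.11), against 53.3% of all genes. Without rat 13 it was 7 of 13 for NuRD (0.02), 4 of 12 for Sin3 (-0.05), 3 of 9 for CoREST (-0.03), 5 of 6 for NCoR and SMRT (0.08) and 6 of 7 for cohesin (0.05), so that the medians of Sin3 and CoREST turned sign. It was then 2 of 11 for class IIa partners (-0.07), 9 of 16 for the kinases (0.01) and 5 of 7 for the Hdac6 list (0.05), against 47.2% of all genes.

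Of the partner genes, 4 are given with values. Mbd3, a NuRD subunit, averaged 76.8 ± 7.13 CPM in chronic ethanol rats and 64.8 ± 5.82 CPM in control rats (SD, n = 6 each), a log2 change of 0.24 ± 0.066 (SE, edgeR adjusted p = 0.432), with 4 of 6 chronic ethanol rats above every control rat. Its value without rat 13 was also 0.24, with an adjusted p of 0.166. Ywhaq, a 14-3-3 protein, averaged 656 ± 45.2 CPM in withdrawal rats and 594 ± 14.6 CPM in chronic ethanol rats, a log2 change of 0.14 with an adjusted p of 0.193 by edgeR and 0.0359 by DESeq2. DESeq2 called 294 genes, 1.67%, in that comparison. Rat 13 was the highest for Ywhaq, at 735.6 CPM against at most 670.8 CPM in the others. Without it the log2 change was 0.11 (edgeR adjusted p = 0.197). Mef2c, a target of class IIa repression, was at 96.4 CPM in rat 13 and at 17.5 to 31.6 CPM in the other 17 rats. Its log2 change in withdrawal against control was 0.60 with rat 13 and -0.05 without it. Camk2a, a kinase of neurons, averaged 44.9 ± 29.1 CPM in chronic ethanol rats and 25.9 ± 9.43 CPM in control rats, a log2 change of 0.79 with an edgeR adjusted p of 0.834, and 2 of 6 chronic ethanol rats were above every control rat. None of the 4 passed the edgeR test.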

How the data were processed

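RNA of the dissected VTA was sequenced as stranded, paired-end mRNA libraries, per the labels. The authors deposited counts of fragments per gene, made with featureCounts 1.5.0 on the reverse strand from STAR 2.5.2a alignments to Rnor_6.0, per the file headers and the submitters' processing notes, which also name R 3.3.3 and limma. Per the file headers, fragments that matched several places or several genes were left out. Symbols came from a RefSeq table of GRCr8, used for names, and matched 29322 of 38445 genes. Coordinates of genes are Rnor_6.0.

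Counts were filtered with filterByExpr, which left 17637 genes, scaled by TMM and tested with edgeR 4.0.16 (R 4.3.3, limma 3.58.1) over all 18 libraries, two-sided, with group as the only term. Standard errors were derived from the F statistic. The fit was first tested on simulated data, and the biological coefficient of variation of the real libraries was 0.270. Any pair of libraries differed by a chi-square of at least 12.4 per degree of freedom, so none was a copy. Reads carried no molecular identifiers, so the precision given by depth covers counting error only. Alternatives were RLE factors, no filter, 1 CPM in 6 libraries, DESeq2 1.42.0, limma-voom, the groups compared only, the first index in the library name, each rat left out, and rats 5, 8, 13 and 17 left out together. Class shares in CPM and without rat 13 were added later, with the data in view. The HDAC genes, the lists and the tests were chosen with earlier results of these data known. The naming rule takes all 10 HDAC genes, Hdac11, the 3 genes most like each, and the 2 members of lowest p of each of 8 partner lists. Of the last, 4 are described, picked after their values were seen.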

Additional observations from a re-analysis of the deposited data

Results flagged for a closer look

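In groups of 6 rats, a rat was looked at again where its gap to the nearest rat was more than 0.625 of the range of the group. Of 30 groups (9 HDAC genes and Hdac11, in 3 groups of rats), 6 held such a rat. Chance gives about 1 in 20 for a single group. The 30 are not independent, since the same rats recur in every gene, so their count cannot be set against that rate. The share of all genes that meet this rule was not computed. Of all genes tested, 32% had rat 13 above all 17 other rats and 25.6% had it below them. Withdrawal rat 13 was the rat in 5 of the 6. Its values were 68.44 CPM for Hdac1, against 29.8 to 37.7 CPM in the other withdrawal rats, and 138.8 CPM for Hdac2, against 65.8 to 75.6 CPM. They were 82.71 CPM for Hdac3, against 57.0 to 61.6 CPM, and 237.1 CPM for Hdac5, against 113.4 to 149.9 CPM. For Hdac11 rat 13 was low, at 160.3 CPM, against 286.6 to 307.1 CPM. Chronic ethanol rat 8 was the other, with Hdac9 at 13.39 CPM, against 22.1 to 26.9 CPM in the other chronic ethanol rats. The pineal and dopamine neuron marker sums of rats 13 and 8 are given above, and whether they have a part in these values was not tested.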

How the results depend on the processing

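No HDAC gene was called in any comparison under any of the 26 alternatives. Over all genes, edgeR called 0 in each comparison. In chronic ethanol against control DESeq2 called 46, and the index term, limma-voom, the groups compared only and the fit without rats 5, 8, 13 and 17 each called 2; leaving out 1 rat gave 0 to 4. In withdrawal against control DESeq2 called 47, and leaving out 1 rat gave 0 to 2. In withdrawal against chronic ethanol DESeq2 called 294, the fit without rats 5, 8, 13 and 17 called 2, and leaving out 1 rat gave 0 to 24, with 22 without rat 13, 24 without withdrawal rat 18 and 12 without chronic ethanol rat 11. The cause was not tested.

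Some log2 changes turned sign, and none of them was called either way. In chronic ethanol against control, Hdac3 was -0.001339 with the 1 CPM filter, -0.001802 with the index and -0.00228 in the groups compared only, and ran from -0.01448 to 0.01347 as each rat was left out. There Hdac8 was -0.003628 with the index and ran from -0.0358 to 0.08618, Hdac9 was 0.03846 without the 4 rats and ran from -0.1006 to 0.06937, and Hdac10 ran from -0.01266 to 0.1065. In withdrawal against control, Hdac2 was -0.008597 and Mef2c -0.07546 without the 4 rats, and Hdac9 was -0.1083 and Hdac10 0.01901 with the index. There leaving out 1 rat gave -0.00142 to 0.1107 for Hdac3, -0.00246 to 0.07162 for Hdac4, -0.00768 to 0.3525 for Hdac9, -0.1531 to 0.003652 for Hdac11 and -0.04935 to 0.7077 for Mef2c. In withdrawal against chronic ethanol, without the 4 rats Hdac3 was -0.005388, Hdac4 0.003592 and Hdac5 -0.06616, and Hdac5 was -0.01511 by limma-voom. There leaving out 1 rat gave -0.002399 to 0.1131 for Hdac3 and -0.1365 to 0.09191 for Hdac5.

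No paired analysis was possible because the rats of the 3 groups share no numbers. With the index as a term, chronic ethanol against control rests on chronic ethanol rats 7 and 8, withdrawal against chronic ethanol on rats 13 to 16 against rats 9 to 12, and no index holds both withdrawal and control rats. The level of Hdac6 could not be read from these counts, and the cause was not tested.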
